A study of Mus musculus with 12 samples.

Results

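This report describes 36 macrophage, leukocyte and chemokine genes in mouse liver RNA, chosen by name as markers and signals of the liver's immune cells, out of 27975 named genes on the array and 14911 genes tested. All 36 were found among the array's probes by gene name, Emr1 being the array's older name of Adgre1. They fall into 7 role groups: 7 genes of Kupffer cell and resident macrophage identity, 8 general macrophage and monocyte genes, 3 C1q chains, 4 Fc receptors and their adaptors, 2 chemokine receptors, 8 chemokines and cytokines, and 4 leukocyte and lymphocyte markers.

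The samples were livers of male mice in 4 groups of 3 two-colour Agilent arrays: Cyp1b1 null mice on a high-fat diet, Cyp1b1 null mice on a low-fat diet, wild-type C57BL6/J mice on the high-fat diet and wild-type mice on the low-fat diet. The mice of every group were weaned at 3 weeks onto the diet, 60% fat or 10% fat, and were killed at 14 weeks. Each sample carried Cy3 and shared its array with a common Cy5 pool of low-fat wild-type liver. A value is thus the log2 ratio of sample over pool, and 0 means an even ratio after normalisation. No dyes were swapped, so a dye bias of a single gene would stay in its values, and 0 need not mean equal amounts. Labelling used 1 of 2 kits by amount of RNA, without a record of which sample had which. Each array is described as 3 pooled samples, and nothing says that the replicates were separate pools. The p-values therefore cover only array-to-array spread, which may be technical. The product of Cyp1b1 is a P450 enzyme active on oestrogens, retinoids and aromatic hydrocarbons. The probe read for Cyp1b1 gave 0.65, 1.68 and 1.23 on the null high-fat arrays, against -0.69, -0.13 and -0.88 on wild-type high-fat arrays. It gave 1.68, 1.58 and 1.59 on the null low-fat arrays, against 0.15, -0.85 and -1.11 on the wild-type low-fat arrays, so it was higher in null livers. Where this probe lies relative to the deleted part is not known here, so it checks nothing.

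Liver macrophages, or Kupffer cells, line the sinusoids and clear particles, bacteria and aged red cells from portal blood. They carry scavenger, complement and Fc receptors, make the C1q chains of complement, and, when activated, release chemokines that bring monocytes and neutrophils into the tissue. Hepatocytes themselves make little of most of these transcripts, although they can secrete chemokines such as Cxcl1. The source label names liver hepatocytes. A probe counted as well above background by the scanner software's own mark, and 28 of the 36 genes were well above it in the sample channel on each of the 12, Kupffer cell genes such as Clec4f, Marco and Vsig4 among them. In these bulk samples, fewer cells of a type and less RNA per cell cannot be told apart.

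A gene was tested when all 3 arrays of some group had its probe well above background, as held for 29 of the 36. Itgam, Ccr2, Cx3cr1, Ccl3, Cxcl2, Tnf and Cd8a were not. The sequences below show what the array read for the Kupffer cell lectin Clec4f and the C1q chains C1qa and C1qb, each a 60-base oligonucleotide printed 5′ to 3′ as the array's files give it.
Clec4f (chromosome 6): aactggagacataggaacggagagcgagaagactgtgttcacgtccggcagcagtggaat
C1qa (chromosome 4): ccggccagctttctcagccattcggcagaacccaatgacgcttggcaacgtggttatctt
C1qb (chromosome 4): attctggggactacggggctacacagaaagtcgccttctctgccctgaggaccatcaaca

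Promoters of 27 of the 36 genes are in RefSeq's table for GRCm38.p6, from 250 bases before to 50 after each start site. The GAGGAA core bound by PU.1, the transcription factor of the macrophage lineage, was searched on both strands. It occurs in 28.3% of the 32851 promoters in the table and in 18 of the 29 promoters of these genes, which is a count of letters and not of bound sites. C1qb and C1qc are shown as 2 chains of 1 complex that lie near each other, each with 1 match, in capitals.
C1qb, chr4:136886151-136886450, minus strand: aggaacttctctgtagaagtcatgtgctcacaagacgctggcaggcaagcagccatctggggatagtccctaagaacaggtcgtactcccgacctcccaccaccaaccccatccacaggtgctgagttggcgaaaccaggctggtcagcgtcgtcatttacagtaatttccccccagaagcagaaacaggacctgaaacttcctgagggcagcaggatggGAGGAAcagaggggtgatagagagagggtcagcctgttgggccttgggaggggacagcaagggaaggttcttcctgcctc
C1qc, chr4:136892865-136893164, minus strand: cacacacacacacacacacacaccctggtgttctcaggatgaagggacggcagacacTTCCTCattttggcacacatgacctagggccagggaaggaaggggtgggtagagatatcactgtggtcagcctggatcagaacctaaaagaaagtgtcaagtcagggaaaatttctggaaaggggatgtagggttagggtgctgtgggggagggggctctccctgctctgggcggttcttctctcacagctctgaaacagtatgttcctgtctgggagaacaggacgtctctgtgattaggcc
The kappa B motif, the site of NF-kappa B that drives many chemokine genes, was searched the same way. It was found in 1.47% of all promoters and, among these genes, in those of Cxcl1 and Cxcl2. Both hold it as overlapping matches, in capitals here, that start 71 and 70 bases before the start site of Cxcl1 and 97 and 96 bases before that of Cxcl2. Cxcl1 is shown because, of the members tested, it had the value farthest from its group, described further on. Cxcl2 is shown because it is the other neutrophil chemokine on the list.
Cxcl1, chr5:90890995-90891294, plus strand: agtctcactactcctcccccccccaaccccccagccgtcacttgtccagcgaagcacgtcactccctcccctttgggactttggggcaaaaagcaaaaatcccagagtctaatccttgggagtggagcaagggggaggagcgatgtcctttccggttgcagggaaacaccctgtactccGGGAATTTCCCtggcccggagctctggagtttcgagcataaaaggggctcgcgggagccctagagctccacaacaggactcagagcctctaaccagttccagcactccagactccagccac
Cxcl2, chr5:90903649-90903948, plus strand: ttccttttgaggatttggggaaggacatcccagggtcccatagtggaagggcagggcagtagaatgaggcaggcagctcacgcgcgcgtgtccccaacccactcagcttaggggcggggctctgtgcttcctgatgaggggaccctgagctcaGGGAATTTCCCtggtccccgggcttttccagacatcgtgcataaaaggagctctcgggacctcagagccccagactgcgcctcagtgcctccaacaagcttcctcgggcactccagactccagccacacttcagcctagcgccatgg

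The 36 genes varied between single arrays of the same group as widely as between groups. Their median log2 ratio was -0.08, -0.87 and -0.41 on the null high-fat arrays 1 to 3, and -0.63, -0.40 and -0.70 on the null low-fat arrays. On wild-type high-fat arrays it was -1.0, -0.52 and -0.27, and it was 0.06, -0.89 and -0.19 with the low-fat diet. The wild-type low-fat group thus held the highest median of all 12 arrays and the next to lowest, and each other group's range overlapped it. On 11 of 12 arrays the median lay below 0, while the median of 10 hepatocyte genes, the markers of the labelled cell type, was above 0 on 11 of 12. The median over genes of the residual SD was 0.569 for the 29 members tested (0.516 over all 36), against 0.295 for all genes tested.

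**Figure D1:**
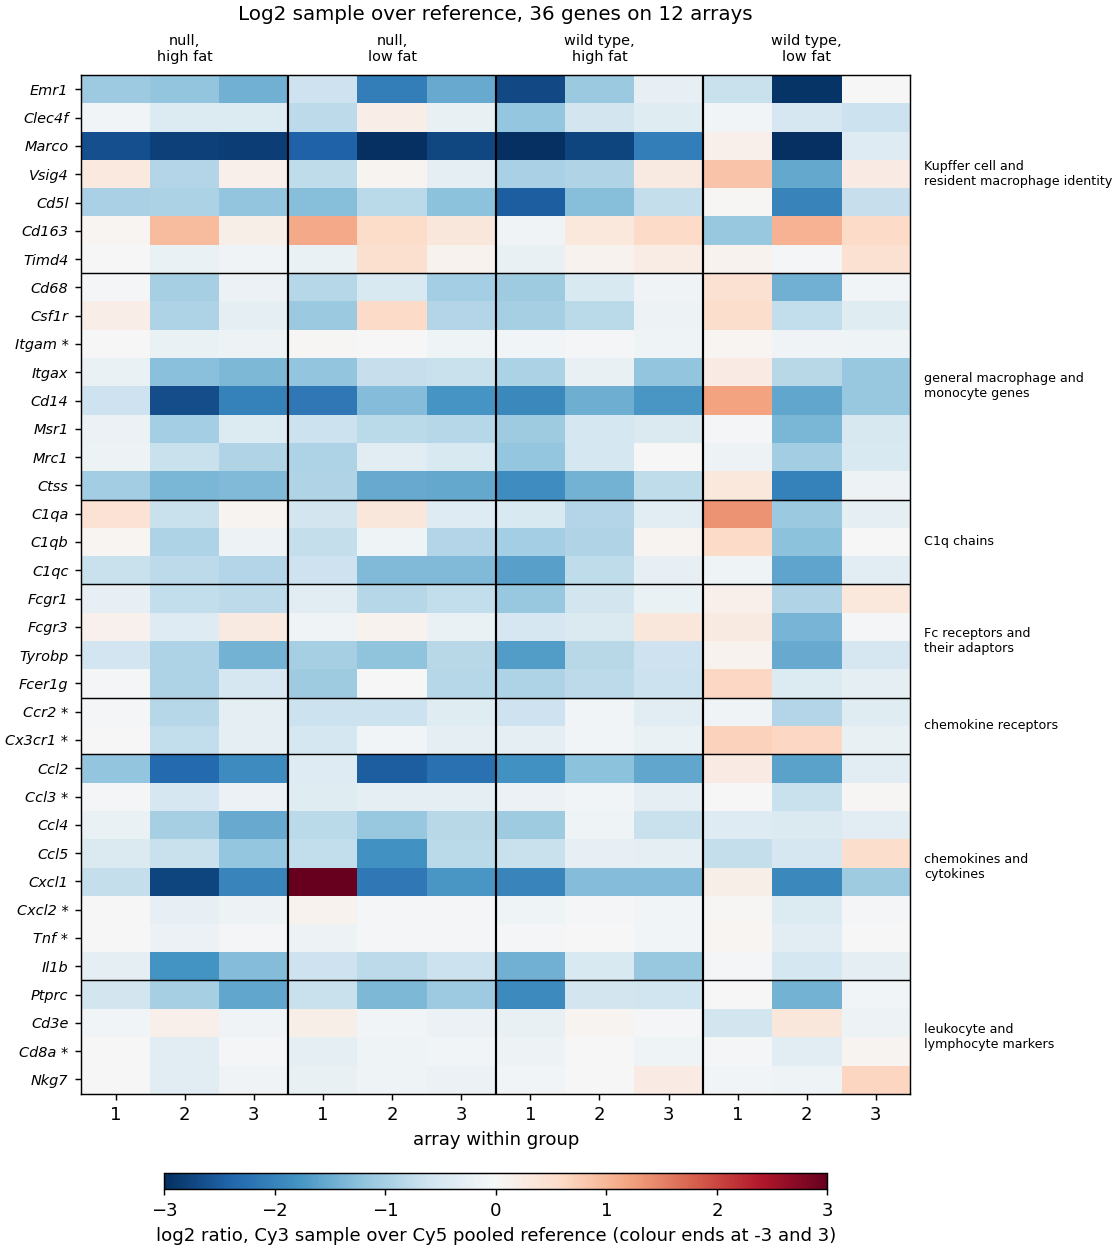
Log2 ratio of sample over pooled reference for the 36 genes (rows, by role) on the 12 arrays (columns, 3 per group). An asterisk marks the 7 genes that were not tested. Blue is below and red above an even ratio, and the colour ends at -3 and 3. Wild-type low-fat array 1 is red or pale over most rows where array 2 of the same group is blue, and Cxcl1 is dark red on null low-fat array 1.

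Single arrays stood at one end of their group for most of the 36 genes. Null high-fat array 1 was the highest of its group for 32 of them. Wild-type high-fat array 1 was the lowest of its group for 31. Wild-type low-fat array 1 was the highest of its group for 26 and of all 12 arrays for 19, while array 2 was the lowest of its group for 29 and of all 12 for 13. Over all genes tested, 26 to 40.4% were highest of their group on any 1 array. The median gap between wild-type low-fat array 1 and its group's other 2 arrays, averaged, was 0.77 for the 36 genes and 0.02 for all genes tested. The array's sample channel for these genes was 0.84 above its mean over the arrays and its reference channel 0.05 above, both on the log2 scale.

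Markers of some other cell types were high on that array too. On wild-type low-fat array 1 the medians of the stellate cell markers (0.50), the sinusoidal endothelial markers (0.38), the cell cycle genes (0.23), the neutrophil markers (0.10) and 32 other macrophage and myeloid genes (0.20) were also the highest of the 12 arrays. Of the stellate markers 8 of 11 were above 0 there, and of the endothelial markers 9 of 11. The hepatocyte median there was 0.22, with 6 of 10 markers above 0. The median of 10 other cytokines was also highest there but near 0 (0.004), with 5 of 10 above 0. The remaining lists of other genes did not peak there. The bile duct median was above 0 only on wild-type low-fat array 2, and the erythroid median only on wild-type high-fat array 2. The median of other T, NK and B cell markers was highest on wild-type low-fat array 3. The part of all these markers in the values of the 36 genes was not tested.

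The arrays were read on 3 days, called scans here, and scan crosses the groups unevenly. Scan 1 held null high-fat arrays 1 and 3, null low-fat arrays 2 and 3, wild-type high-fat array 1 and wild-type low-fat array 1. Scan 2 held 1 array of each group, and scan 3 held 2 wild-type arrays, 1 per diet. By barcode, null low-fat arrays 2 and 3 shared a slide that held no other array of scan 1, and the rest of scan 1 shared another slide. Within scan 1, any difference that uses the null low-fat group is therefore also a difference between slides. That holds for genotype on low fat, diet in null livers and the interaction. The median of the 36 genes ranged from -1.0 to 0.06 over the 6 arrays of scan 1, from -0.89 to -0.52 over the 4 of scan 2 and from -0.27 to -0.19 over the 2 of scan 3. Taken as the plain log2 ratio of the 2 mean signals, before any correction, the median of all genes tested was 0.76 to 1.71 in scan 1, -1.36 to -0.89 in scan 2 and -0.40 to 0.08 in scan 3. On that scale the members' median minus the array's median was -1.02 to -0.72 over the 4 arrays of scan 2 and -0.95 to -0.78 on 5 of the 6 arrays of scan 1. It was 0.18 on the sixth, wild-type low-fat array 1, and -0.43 and -0.16 on the scan 3 arrays.

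**Figure D2:**
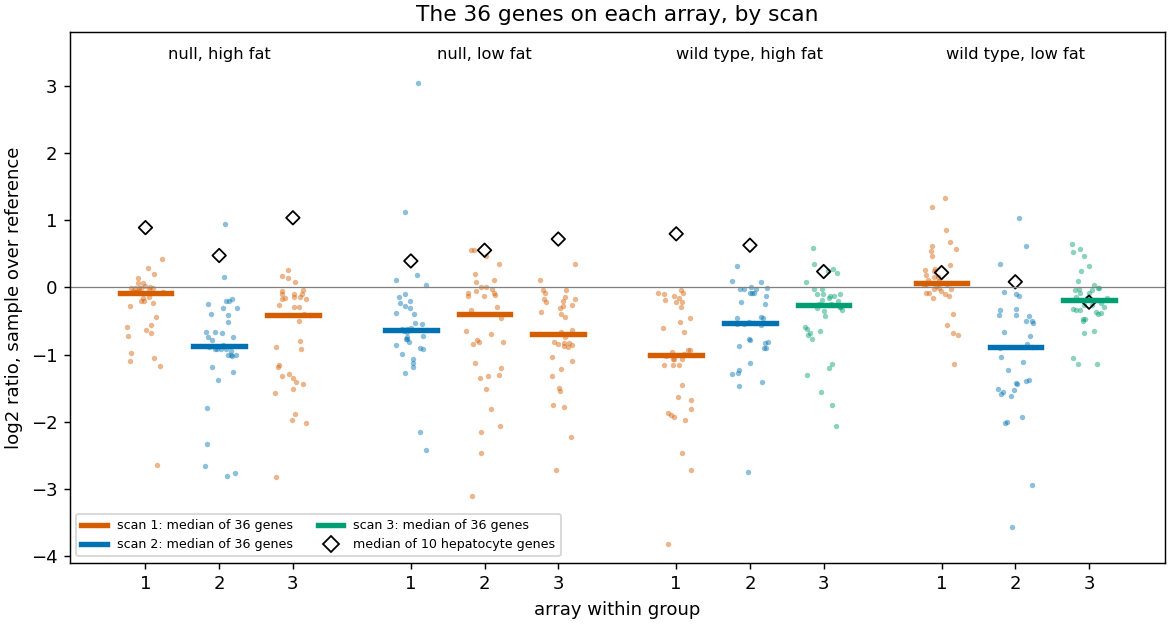
Log2 ratio of sample over reference of the 36 genes (dots) on each array, with their median (bar) in the colour of the array's scan, and the median of 10 hepatocyte genes (open diamonds). The members' median is above 0 only on wild-type low-fat array 1, and the hepatocyte median is below 0 only on wild-type low-fat array 3.

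On the low-fat diet, with null set against wild-type livers, no member passed the test, and 28 of the 36, among them 24 of the 29 tested, had a lower mean in null livers. The median difference was -0.24 for the 36 genes and -0.01 for all genes tested, 50.9% of which were lower and 49.1% higher. Limma's moderated test on all 12 arrays, with Benjamini-Hochberg adjustment over 14911 genes and a threshold of 0.05, called 0 of the 29 members tested, against 3 of all genes (0.0201%). At an unadjusted p under 0.05 it held 1 member lower and 0 higher, against 3.76% of all genes lower and 3.43% higher. Limma was the only tool run. Of the 10 hepatocyte markers 8 had a higher mean in null livers (median 0.42), and of the 11 stellate markers 9 had a lower one (median -0.76), and their part in the members' values was not tested.

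The sign of the members' median low-fat difference differed between scans. Within scan 1, where 2 null arrays face wild-type array 1 on another slide, it was -0.84. Within scan 2, where 1 null array faces wild-type array 2, it was 0.27. Without wild-type array 1 it was -0.01 over the 3 null and 2 wild-type arrays that remained, and without wild-type array 2 it was -0.55.

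Ccl5, a chemokine for T cells and monocytes, had the smallest p of any member in any comparison. It measured -0.74, -1.81 and -0.82 on the null low-fat arrays, against -0.72, -0.50 and 0.52 on the wild-type low-fat arrays. Every null array lay below every wild-type array, though null array 1 and wild-type array 1 were almost level. The difference was -0.89 (SE 0.36, n = 3 arrays each, limma adjusted p = 0.628), and it was -0.60 within scan 1 and -0.24 within scan 2. On the high-fat diet Ccl5 measured -0.44, -0.68 and -1.16 in null livers, against -0.66, -0.24 and -0.30 in wild-type livers, which overlap.

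Ccl4, a chemokine for monocytes, T cells and NK cells, and Il1b, the macrophage cytokine interleukin-1 beta, were the other members whose arrays did not overlap between the low-fat groups. Ccl4 measured -0.82, -1.13 and -0.83 on the null low-fat arrays, against -0.39, -0.43 and -0.33 on the wild-type low-fat arrays. It stood well above background on 8 of all 12 arrays, with 2 of 3 in each of these low-fat groups. Only the wild-type high-fat group had it well above background on all 3. Il1b measured -0.61, -0.78 and -0.64 on the null arrays, against -0.06, -0.54 and -0.26 on the wild-type arrays. Thus 3 members, all of them chemokines or cytokines, lay wholly lower in null livers and 0 wholly higher, beside 4.52% and 4.81% of all genes. The difference was -0.54 for Ccl4 (limma adjusted p = 0.778) and -0.39 for Il1b (limma adjusted p = 0.88).

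Marco, a scavenger receptor of Kupffer cells, had the largest low-fat difference of the identity genes. It measured -2.42, -3.10 and -2.72 on the null low-fat arrays, against 0.16, -3.56 and -0.39 on the wild-type low-fat arrays. On the high-fat diet it measured -2.64, -2.81 and -2.82 in null livers, against -3.82, -2.75 and -2.06 in wild-type livers. So 10 of the 12 arrays lay between -3.82 and -2.06, and the 2 higher ones were both wild-type low-fat. The third array of that group was at the low level of the other groups. The low-fat difference was -1.48 (SE 0.78, n = 3 each, limma adjusted p = 0.752), it was -3.07 within scan 1 and 1.14 within scan 2, without wild-type array 2 it was -2.63, and without wild-type array 1 it was -0.77.

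Emr1, the F4/80 antigen of mouse macrophages, was also split within the wild-type groups. It measured -0.62, -2.06 and -1.50 on the null low-fat arrays, against -0.68, -2.94 and -0.01 on the wild-type low-fat arrays. The wild-type high-fat values were -2.72, -1.12 and -0.24, so both wild-type groups spanned over 2 log2 units. Clec4f, the lectin that marks mouse Kupffer cells, varied less: its 12 values ran from -1.16 to 0.19, with a residual SD of 0.37 against 1.06 for Emr1. Vsig4, a complement receptor, ran from -1.53 to 0.85, Cd5l, a secreted macrophage protein that binds lipid, from -2.47 to 0.03, and Timd4, a receptor for dying cells, from -0.22 to 0.47.

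Cd163, the macrophage receptor for haemoglobin bound to haptoglobin, was low on the array where most members were high. It measured 1.13, 0.55 and 0.34 on the null low-fat arrays, against -1.14, 1.03 and 0.57 on the wild-type low-fat arrays. Wild-type low-fat array 1, the highest of its group for most members, was its lowest of all 12 arrays, and 10 of its 12 values were above 0. Cd3e, a chain of the T cell receptor complex, likewise had its lowest value there (-0.56), and its 12 values ended at 0.35 on wild-type low-fat array 2.

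Of the general macrophage genes, Cd14, the co-receptor for bacterial lipopolysaccharide, had the smallest p. It measured -2.16, -1.31 and -1.78 on the null low-fat arrays, against 1.21, -1.56 and -1.14 on the wild-type low-fat arrays. The 1.21 stood alone: on the other 11 arrays of the study Cd14 lay between -2.66 and -0.63. The low-fat difference was -1.25 (SE 0.66, n = 3 each, limma adjusted p = 0.752). It was -0.40 without wild-type array 1, -2.75 within scan 1 and -0.60 within scan 2. The scavenger and mannose receptors Msr1 and Mrc1 had differences of -0.15 and -0.02, and the lysosomal protein Cd68 -0.43. Ctss, a lysosomal protease of antigen presentation, had -0.71, and Csf1r, the receptor of the macrophage growth factor, -0.29. Each of the 7 genes of this group that were tested had a lower mean in null low-fat livers, as had 50.9% of all genes tested. For Csf1r this depended on the probe: a second one, well above background on all 12 arrays, gave 0.11.

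The 3 C1q chains, which form the recognition part of the first complement component, had group means that differed in the same direction. Each had a lower mean in null livers on the low-fat diet (-0.41 to -0.18) and a higher mean in null livers on the high-fat diet (0.09 to 0.50). C1qa measured 0.43, -0.66 and 0.08 on the null high-fat arrays, against -0.45, -0.88 and -0.34 on wild-type high-fat arrays, and the groups overlap. On the low-fat diet it measured -0.54, 0.35 and -0.40 on the null low-fat arrays, against 1.34, -1.10 and -0.30 on the wild-type low-fat arrays, where the wild-type values enclose every other value of the gene. The difference was 0.50 on the high-fat diet (SE 0.52, limma adjusted p = 1) and -0.18 on the low-fat diet (SE 0.52, limma adjusted p = 0.971). The low-fat difference of C1qa was 0.50 without wild-type array 1, and within scan 2 those of all 3 chains were above 0.

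**Figure D3:**
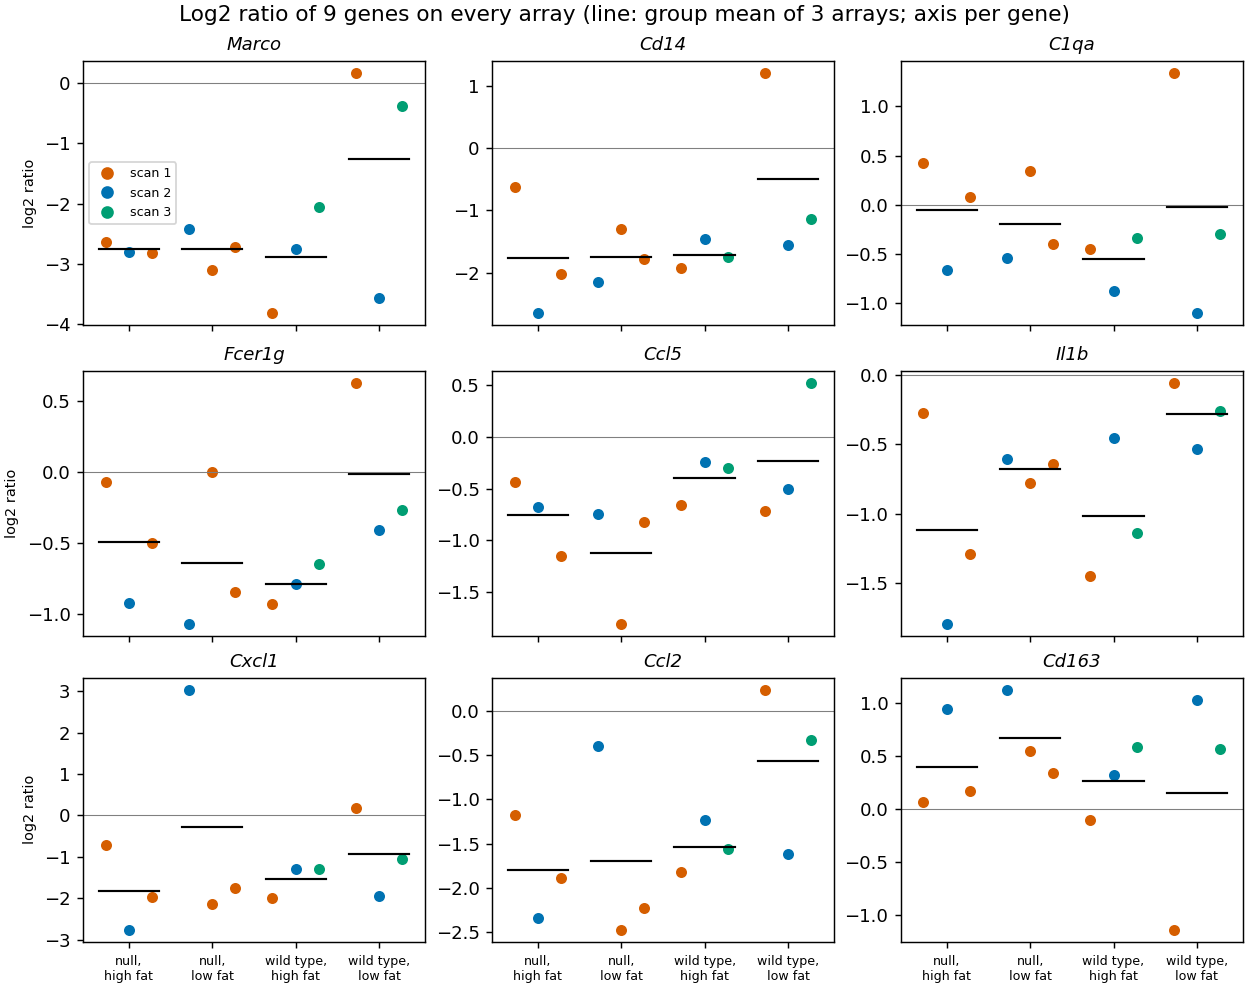
Log2 ratio of sample over reference of 9 genes on the 12 arrays, by group, with the group mean of 3 arrays as a line and the array's scan as its colour; each panel has its own vertical axis. Wild-type low-fat values are the most spread in Marco, Cd14 and C1qa, Cxcl1 reaches 3.04 on null low-fat array 1, and Cd163 is lowest on wild-type low-fat array 1.

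On the high-fat diet, in null against wild-type livers, no member passed the test. Of the 29 members tested 18 had a higher mean in null livers and 11 a lower one, and the 7 not tested all had a lower one. The median difference was 0.02 over the 36 and 0.096 over the 28 well above background on every array (a set chosen after the data were seen), against 0.00 for all genes tested, 49.4% of which were lower and 50.6% higher. Limma called 0 of the 29 members tested at an adjusted p under 0.05, against 2 of all genes (0.0134%), and 0 at an unadjusted p under 0.05, where all genes had 1.22% higher and 1.35% lower. No member's arrays lay wholly apart, against 3.65% of all genes higher and 4.09% lower. By role, 6 of the 7 Kupffer cell genes, all 3 C1q chains and all 4 Fc receptors and adaptors had a higher mean in null livers, and the 5 chemokines and cytokines that were tested a lower one. The median over the 36 was 0.63 within scan 1 and -0.18 within scan 2, so its sign differed between the scans.

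In wild-type livers the high-fat diet was set against the low-fat diet, and again no member passed. The median difference was -0.22, with 29 of 36 genes, among them 26 of the 29 tested, lower on the high-fat diet, against 0.01 for all genes tested, 48.8% of which were lower and 51.2% higher. Limma called 0 of the 29 members tested at an adjusted p under 0.05, against 1 of all genes (0.00671%). At an unadjusted p under 0.05 it held 1 member lower and 0 higher, against 2.21% of all genes lower and 1.81% higher. Within scan 1 that median was -1.25 and within scan 2 it was 0.36, while it was -0.04 without high-fat array 1 and -0.54 without low-fat array 2 of these mice. Over the 28 members well above background on every array it was -0.39. Of the 10 hepatocyte markers 7 had a higher mean on the high-fat diet (median 0.28), and a lower one was held by 8 of 11 stellate markers (median -0.45) and 11 of 13 cell cycle genes (median -0.44). Within scan 1 these 3 medians were -0.002, -1.74 and -1.3, and within scan 2 they were 0.34, 0.02 and 0.87. The part of these genes in the members' values was not tested.

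The member with the unadjusted p was Fcer1g, the gamma chain that signals for Fc receptors. It measured -0.93, -0.79 and -0.64 on wild-type high-fat arrays, against 0.62, -0.41 and -0.27 on the wild-type low-fat arrays. Every high-fat array lay below every low-fat array, as for 1 member in all, beside 3.69% of all genes lower and 3.55% higher. The difference was -0.77 (SE 0.33, n = 3 each, limma adjusted p = 1), and it was -1.56 within scan 1 and -0.38 within scan 2. The other genes of this group had smaller differences: Tyrobp, the DAP12 adaptor, had -0.41, the high-affinity receptor Fcgr1 -0.49, and the low-affinity receptor Fcgr3 0.18. A second probe of Fcgr3, well above background on all 12 arrays, gave -0.24 in the same comparison.

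Nkg7, a granule protein of NK and cytotoxic T cells, had the smallest p of the lymphocyte markers, in the low-fat genotype comparison. It measured -0.23, -0.12 and -0.17 on the null low-fat arrays, against -0.08, -0.12 and 0.65 on the wild-type low-fat arrays. The difference of -0.32 (SE 0.21, n = 3 each, limma adjusted p = 0.812) was -0.07 without wild-type array 3. A second measured probe of Nkg7, well above background on 8 arrays, gave 0.08 in the same comparison. Ptprc, the pan-leukocyte antigen CD45, had -0.53 in that comparison and -0.51 for diet in wild-type livers, and its 12 values ran from -1.91 to -0.01.

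In null livers the members were divided between higher and lower with diet. The median difference of high minus low fat was 0.03, with 21 of 36 genes, among them 18 of the 29 tested, higher on the high-fat diet, against 0.02 for all genes tested, 54.5% of which were higher and 45.5% lower. Limma called 0 of the 29 members tested at an adjusted p under 0.05, against 1 of all genes (0.00671%), and 0 at an unadjusted p, against 0.858% of all genes higher and 1.05% lower. No member's arrays lay wholly apart, beside 2.3% of all genes higher and 2.53% lower. Within scan 1 that median was 0.15, and within scan 2 it was -0.17.

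The interaction, the diet difference in null livers minus that in wild-type livers, had a median of 0.30 over the 36 genes, with 28 above 0, among them 24 of the 29 tested, beside 52% of all genes tested above 0 and 48% below. Limma called 0 of the 29 members tested and 0 of 14911 genes (0%) at an adjusted p under 0.05. At an unadjusted p under 0.05 it held 0 members, against 0.463% of all genes above 0 and 0.436% below. This median uses the same wild-type low-fat arrays as 2 of the comparisons above, and was 1.45 within scan 1 and -0.61 within scan 2.

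**Figure D4:**
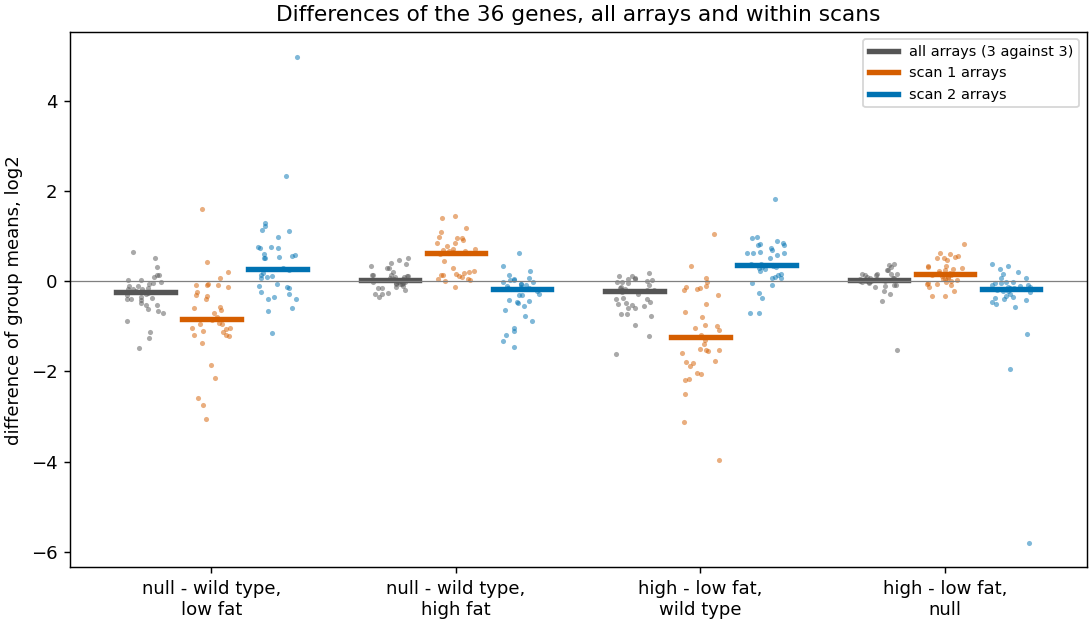
Difference of group means (log2) of the 36 genes (dots) in the 4 comparisons, with the median as a bar, over all arrays (grey), within scan 1 (orange) and within scan 2 (blue). In each comparison the medians within the scans lie on opposite sides of 0; within scan 2 each difference is of 1 array against 1.

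The counts of both comparisons that use the wild-type low-fat group changed with the array left out of it. Without array 2, 10 of the 29 members tested had an unadjusted p under 0.05 and a lower mean in null low-fat livers, against 6.02% of all genes. These were C1qc, Ccl2, Ccl5, Cd14, Cd68, Ctss, Fcgr1, Marco, Ptprc and Tyrobp, and the smallest limma adjusted p was 0.0529. In that setting 25 of 29 had a lower mean, against 51.6% of all genes, and 17 lay wholly lower, against 12.6%. For diet in wild-type livers 11 of 29 were lower at an unadjusted p, against 3.63% of all genes, 27 had a lower mean, against 49.5%, and 13 lay wholly lower, against 9.85%. The smallest limma adjusted p was 0.249 there.

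Without array 1 instead, 1 member (Ccl5) was lower in null livers at an unadjusted p, against 5.54% of all genes, 16 of 29 had a lower mean, against 49.2%, and 3 lay wholly lower, against 11.7%. For diet 0 were lower at an unadjusted p, against 2.47% of all genes, 19 had a lower mean, against 47.5%, and 1 lay wholly lower, against 9.43%. Without array 3, 0 members were lower in null livers at an unadjusted p, against 3.41% of all genes, 20 of 29 had a lower mean, against 49.8%, and 3 lay wholly lower, against 7.73%. For diet 1 member, Fcer1g, was lower at an unadjusted p, against 3.74% of all genes, 20 had a lower mean, against 49.4%, and 1 lay wholly lower, against 9.42%. Of these 3 settings, the one without array 2 alone had a larger share of members than of all genes below an unadjusted p of 0.05 in both comparisons.

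Cxcl1, a chemokine for neutrophils, had a single high array. It measured 3.04, -2.15 and -1.75 on the null low-fat arrays, against 0.19, -1.94 and -1.06 on the wild-type low-fat arrays. It measured -0.72, -2.76 and -1.98 on the null high-fat arrays, against -1.98, -1.30 and -1.30 on wild-type high-fat arrays. The gap of 4.99 between null low-fat array 1, of scan 2, and the group's other 2 arrays, of scan 1, averaged, was the largest of all genes tested on that array. The low-fat difference of Cxcl1 of 0.65 had an SE of 1.14 (limma adjusted p = 0.952).

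Ccl2, the monocyte chemokine MCP-1, had its group's highest value on the same array. It measured -0.39, -2.47 and -2.23 on the null low-fat arrays, against 0.24, -1.61 and -0.33 on the wild-type low-fat arrays. Wild-type low-fat arrays 1 and 3 were both higher than null low-fat array 1. The gap of Ccl2 there, against the other 2 null low-fat arrays averaged, was 1.96 and ranked 30 among all genes tested. The 10 largest such gaps, named after their values were seen, were those of Cxcl1, Cidea (4.49), Mt2 (4.07), Saa2 (3.97), Cfd (3.95), Tnfaip3 (3.68), Saa1 (3.59), Fabp4 (3.48), Saa3 (3.35) and Fgb (2.96). Null low-fat array 1 was read in scan 2 and the group's other 2 arrays in scan 1, so each gap also lies between scans. Fgb ran from -0.16 to 1.27 on the 4 arrays of scan 2 and from -2.07 to -1.34 on the 6 of scan 1. Cxcl1 was -1.94, -1.30 and -2.76 on the other arrays of scan 2. The part of scan in these gaps was not tested.

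Il1b differed with diet when the sample channel was read alone. As quantile-normalised log2 Cy3 signal it was 7.08, 7.49 and 7.23 on wild-type high-fat arrays, against 8.47, 8.0 and 8.31 on the wild-type low-fat arrays. Every high-fat array was lower, and so was each high-fat array against the low-fat array of its scan. The difference was -0.99 (SE 0.14, n = 3 each, limma adjusted p = 0.0488), which makes it the 1 member called in that setting, where 11 of all genes were called (0.0738%). In null livers the signal was 7.02, 7.01 and 6.96 on the high-fat diet, against 7.91, 7.72 and 7.93 on the low-fat diet, without overlap (difference -0.86, SE 0.14, limma adjusted p = 0.115). In the other comparisons of that setting 0 members were called, against 0.329% of all genes for genotype on low fat, 0.409% for genotype on high fat, 0.0268% for diet in null livers and 0% for the interaction.

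As a ratio to the pool, Il1b measured -1.45, -0.46 and -1.14 on wild-type high-fat arrays, against -0.06, -0.54 and -0.26 on the wild-type low-fat arrays, and these overlap. The difference was -0.73 (SE 0.35, limma adjusted p = 1), and it was 0.08 within scan 2. It measured -0.28, -1.79 and -1.29 on the null high-fat arrays, against -0.61, -0.78 and -0.64 on the null low-fat arrays, with a difference of -0.44 (SE 0.35, limma adjusted p = 1). The call thus rests on the scale. The ratio is the main measure here, and values of a single channel are named as such.

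**Figure D5:**
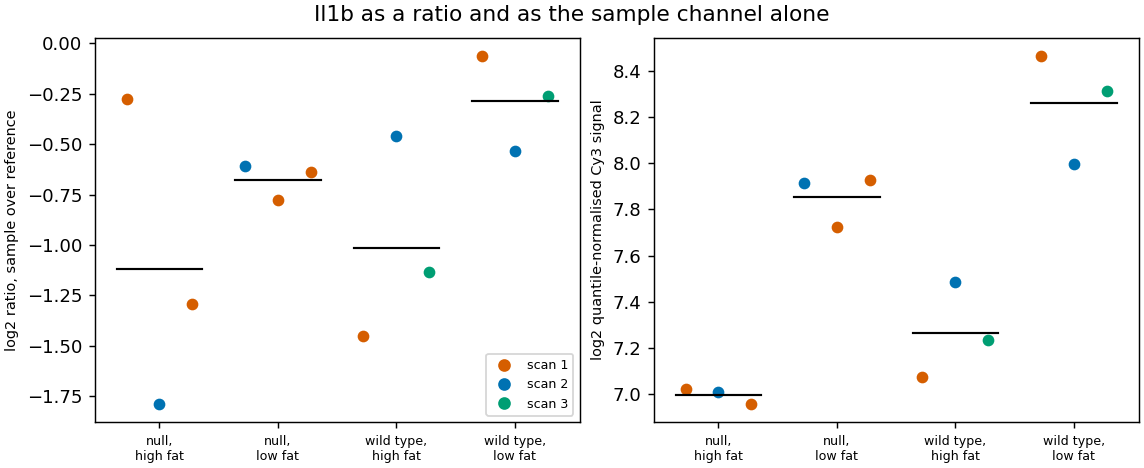
Il1b on the 12 arrays as a log2 ratio of sample over reference (left) and as the quantile-normalised log2 Cy3 signal of the sample alone (right), by group with the mean of 3 arrays as a line and scan as colour. On the right both high-fat groups lie wholly below both low-fat groups, and on the left they overlap.

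Further genes of the same pathways had no member past the threshold either. Of 32 other macrophage and myeloid genes, 26 had a lower mean in null than in wild-type low-fat livers (median -0.36). In wild-type livers 25 had a lower mean on the high-fat than on the low-fat diet (median -0.24). Within scan 1 these medians were -0.73 and -1.01, and within scan 2 they were 0.18 and 0.54, so both changed sign. Over all genes tested, 50.9% and 48.8% were lower in these comparisons. Cd52, a leukocyte surface peptide, had -1.35 in the first (limma adjusted p = 0.275) and -0.94 in the second (adjusted p = 1), and Mpeg1, a pore-forming macrophage protein, -0.81 (adjusted p = 0.551) and -0.95 (adjusted p = 0.888). Of 27 other chemokines and receptors, 22 had a lower mean in null low-fat livers (median -0.23) and 23 in null high-fat livers (median -0.08). For these genes the medians were -0.14 and 0.02 within scan 1, and 0.02 and -0.36 within scan 2. Among the 17 tested 15 and 14 were lower, against 50.9% and 49.4% of all genes tested. Cxcl9, an interferon-induced chemokine for T cells, had -1.31 on the low-fat diet (adjusted p = 0.464) and -0.97 on the high-fat diet (adjusted p = 1). Of 10 neutrophil markers on the array 4 had a higher mean in null low-fat livers and 6 a lower one (median -0.05). The 4 that were tested were the higher ones, while 49.1% of all genes tested were higher. Tested too were 14 of 20 other T, NK and B cell markers, 5 of 10 other cytokines, 6 of 7 bile duct markers and 4 of 6 erythroid markers, of which 0 passed in any of the comparisons.

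Where a gene had several probes above background, they did not always go the same way. This held for 8 members, whose probes shared a sign in 5 of 8 for genotype on the low-fat diet, 7 for genotype on the high-fat diet, 5 for diet in wild-type livers and 6 for diet in null livers. Cx3cr1, the fractalkine receptor of monocytes, stood well above background on 0 of 3 null low-fat arrays and on 2 of 3 wild-type ones. Its mean sample signal, after loess and Aquantile normalisation, was 1.52-fold lower in null low-fat livers. A floor at the lowest signal marked well above background did not change this fold, which can carry dye bias and is not a lower bound. As ratios the groups overlap: -0.52, -0.08 and -0.30 on the null low-fat arrays, against 0.68, 0.62 and -0.23 on the wild-type ones. A second probe of Cx3cr1, well above background on 1 array, gave a difference of 0.05.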

How the data were processed

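Liver RNA of 12 samples was read on two-colour Agilent arrays. The deposited intensity values are each spot's mean signal and median local background in both colours, from Agilent Feature Extraction 9.1.3.1, per the file headers. Log10 ratios of the processed signals are deposited beside them, per the file headers. A further deposited table gives log2 ratios of groups, for which limma is named per the submitters' processing notes, and it equals group differences of those log10 ratios within 5e-10.

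From the spot intensities, limma 3.58.1 (R 4.3.3) gave log2 ratios of Cy3 over Cy5 by normexp with an offset of 50 and loess within arrays, with no step between arrays. Marked spots (120 in all) were left out, and spots of 245 repeated probes were averaged. Each gene took its brightest measured probe. Per array, 18375 to 23439 of 41174 sample-channel probes and 17286 to 25998 reference-channel probes stood well above background. The number of arrays limits the precision. A mean per group was fitted to the 12 arrays (8 residual and 3.16 prior degrees of freedom).

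The members and the lists were chosen with earlier results of these data known. Values on every array are given for the member with the smallest p in each role group that has a tested member. Emr1, Cd163, Ccl2, Ccl4, Cxcl1 and Il1b, and the single values given for other members, were added after their values were seen. Of other lists, the 2 genes with the smallest p could be named. Over the 4 groups together, replicate numbers did not mark paired samples. The deviations of same-numbered arrays had a median correlation of -0.01, and 6 of 18 pairs were over 0.1. Between the 2 wild-type groups, though, same-numbered arrays shared a scan, and their deviations correlated at 0.329, 0.335 and 0.463. Arrays of different groups had a median correlation of 0.378 within a scan and -0.18 between scans. The main fit used neither number nor scan. The steps were tested on simulated data.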

Additional observations from a re-analysis of the deposited data

How the results depend on the processing

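No member passed the adjusted threshold under any alternative except Il1b (1 member) for diet in wild-type livers in the sample channel alone. The results below stand in the order null against wild-type on low fat, the same on high fat, diet in wild-type livers, diet in null livers and interaction, and give the values that moved. The causes were not tested. All genes past the threshold numbered 0, 0, 0 and 0 with median centring and with mean signals without background correction. They numbered 49, 50 and 5 with Agilent processed signals, and 49, 61, 11 and 4 in the sample channel alone. With scan as a block they numbered 14, 5 and 0. They numbered 1, 1 and 0 both with no filter and with the replicate block, 7 and 1 with a filter on the reference channel, and 0, 0 and 0 with trend and robust settings. With slide as a block they were 1 for low-fat genotype and 0 for each diet comparison, and with only the groups compared 0 for low-fat genotype and wild-type diet and 3 for null diet.

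Members at an unadjusted p under 0.05, out of 29 tested, are given with the share of all genes at such a p in the same setting. They were 6, 2, 6, 1 and 1 with processed signals (11.1%, 5.72%, 7.43%, 3.44% and 2.29% of all genes). In the sample channel alone they were 6 (11.4%), 1 (6.67%), 4 (9.8%) and 1 (4.82%) in the 4 group comparisons. They were 0 for low-fat genotype and wild-type diet with median centring (1.16% and 0.114%) and with uncorrected signals (0.925% and 0.51%). With scan as a block they were 3 for low-fat genotype (12.8%), 3 for wild-type diet (7.79%) and 1 for the interaction (2.39%), and with the replicate block 2 (7.06%) and 0 (4.18%) for the first 2 of these. With slide as a block they were 3 (7.99%), 2 (3.08%) and 1 (2.29%) for both diet comparisons and the interaction. With no filter they were 2 of 36 for low-fat genotype (6.99%), and for wild-type diet they were 0 with the mean of a gene's probes (3.94%) and 2 with only the groups compared (3.07%). Of all 36, members whose arrays did not overlap were 5, 5 and 6 in the last 3 group comparisons with processed signals (13.4%, 10.8% and 8.14% of all genes tested), and 6, 8, 3 and 4 in the sample channel alone (12.1%, 18.6%, 13.1% and 12.1%). They were 0 for low-fat genotype with median centring (2.84%) and with uncorrected signals (2.45%), and for wild-type diet 0 (2.21%) and 2 (2.84%).

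The median over the members, WT_HFD minus WT_LFD, was -0.64 with processed signals and -0.65 in the authors' deposited table. Within scan 1 the medians were -0.84, 0.63, -1.25 and, for the interaction, 1.45. Within scan 2 they were 0.27 for low-fat genotype, 0.36 for wild-type diet and -0.61 for the interaction. The median of the members on an array moved by over 0.376, the SD within groups, as follows. With uncorrected signals it was -1.48 on null high-fat array 2, -1.44 and -0.066 on null low-fat arrays 1 and 3, -0.28 and -1.41 on wild-type high-fat arrays 1 and 2, and 1.13 and -1.62 on wild-type low-fat arrays 1 and 2. With processed signals it was -0.62 and -1.03 on null high-fat arrays 1 and 3, -1.09 on null low-fat array 3, -1.53 and -1.11 on wild-type high-fat arrays 1 and 2, and -1.39 on wild-type low-fat array 2. Over the 28 members well above background on every array it was -0.84 on null high-fat array 3 and -1.30 on wild-type low-fat array 2.

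Leaving out each array in turn gave medians of -0.55 to -0.01, -0.16 to 0.22, -0.54 to -0.04, -0.08 to 0.12 and 0.07 to 0.54. Genes past the threshold ran from 1 to 26, 0 to 5, 0 to 1, 0 to 1 and 0 to 0, members at an unadjusted p from 0 to 10, 0 to 1, 0 to 11, 0 to 1 and 0 to 5, and members whose arrays did not overlap from 3 to 20, 0 to 8, 1 to 15 and 0 to 9. The same shares of all genes ran from 4.04% to 11.3%, 1.66% to 3.61%, 2.73% to 7.52%, 1.03% to 4.22% and 0.469% to 2.98% at an unadjusted p, and from 9.32% to 24.6%, 7.75% to 22.5%, 7.24% to 20.9% and 4.83% to 21.9% without overlap. With wild-type low-fat arrays 1 and 2 both left out, chosen after seeing the data, the medians were -0.36 for low-fat genotype, -0.45 for wild-type diet and 0.42 for the interaction. With 3 arrays a group, small differences could not be called.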
